A study of Rattus norvegicus with 22 samples.

Results

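Transcription factors that direct meiosis and spermatid formation were followed in rat germ cells. The genes were Crem, Fhl5, Rfx2, Mybl1, Pou5f2, Sox30, Taf7l and Tbpl1, and their probes were found by matching the accession of each array probe to these 8 symbols. Of the 8 genes, 7 had a probe, with 11 probes in all out of 30367 on the array. Crem had 5 probes, the other 6 genes had 1 each, and no probe matched Sox30. No measured value was used in the matching.

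Total RNA came from germ cells of male rats gavaged 6 days a week for 4 weeks with saline or with 6 mg/kg of cyclophosphamide, a drug used against cancer that alkylates DNA. Cells were parted by size in a STA-PUT chamber, where they settle under gravity alone. The labels give neither strain nor age. The 22 RNA samples, each on an Agilent single-colour array and each labelled with a rat number, fell into 4 groups: pachytene spermatocytes after saline (n = 5) or cyclophosphamide (n = 5), and round spermatids after saline (n = 6) or cyclophosphamide (n = 6). The series asks how chronic cyclophosphamide changes transcripts in these cells. Levels are log2 processed signal minus the 75th percentile of the array, so that 0 is that percentile. A level is followed by its SD over arrays, and a difference between groups by its SE from limma. A difference passed at a Benjamini-Hochberg adjusted p below 0.05 over all probes tested.

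Pachytene spermatocytes are in the long prophase of the first meiotic division, and round spermatids are the haploid cells that meiosis yields. CREM is a cAMP-responsive factor whose activator forms switch on many genes of spermatids, and FHL5, also called ACT, is a LIM-domain protein that acts as its coactivator in the testis. MYBL1, or A-MYB, is the master activator of pachytene genes, including those of the pachytene piRNA pathway. RFX2 works beside it and goes on to drive genes for spermatid shape and the flagellum. POU5F2, also known as SPRM-1, is a POU-domain factor of the testis. SOX30 activates genes after meiosis. TAF7L is a germ cell paralog of the TFIID subunit TAF7, and TBPL1, also called TRF2 or TLF, is a relative of the TATA-binding protein that spermatids need to mature.

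Promoter windows were available for 7 of the 8 genes, as 9 windows of 250 bases before to 50 bases after a start site, from RefSeq on the build GRCr8. Crem had 3 windows, and Mybl1 had none in the table used. The windows of Crem and Rfx2 are printed because Crem is known to give a shorter repressor, ICER, from an internal start that CREM itself can shut, and because Rfx2 is known as a target of A-MYB. Each is given 5′ to 3′ along the gene's strand. In the Crem windows, capitals mark the full cAMP response element TGACGTCA, which reads the same on both strands. In the Rfx2 window, capitals mark, on either strand, MYB words of 6 letters (CAAC or TAAC with GG or TG after it) and GTTGCC, an arm of the X-box bound by RFX factors.
Crem chr17:58933816-58934115 (+): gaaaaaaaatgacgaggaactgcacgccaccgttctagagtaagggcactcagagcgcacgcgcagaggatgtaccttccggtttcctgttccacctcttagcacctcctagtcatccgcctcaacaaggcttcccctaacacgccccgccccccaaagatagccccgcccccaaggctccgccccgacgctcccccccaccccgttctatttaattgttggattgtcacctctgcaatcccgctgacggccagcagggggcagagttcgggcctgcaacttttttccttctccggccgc
Crem chr17:58984547-58984846 (+): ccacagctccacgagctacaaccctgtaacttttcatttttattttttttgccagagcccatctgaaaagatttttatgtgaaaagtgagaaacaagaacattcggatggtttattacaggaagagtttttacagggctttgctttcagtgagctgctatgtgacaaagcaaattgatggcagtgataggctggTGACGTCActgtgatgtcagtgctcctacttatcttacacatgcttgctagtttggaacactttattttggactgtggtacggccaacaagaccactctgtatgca
Crem chr17:58985240-58985539 (+): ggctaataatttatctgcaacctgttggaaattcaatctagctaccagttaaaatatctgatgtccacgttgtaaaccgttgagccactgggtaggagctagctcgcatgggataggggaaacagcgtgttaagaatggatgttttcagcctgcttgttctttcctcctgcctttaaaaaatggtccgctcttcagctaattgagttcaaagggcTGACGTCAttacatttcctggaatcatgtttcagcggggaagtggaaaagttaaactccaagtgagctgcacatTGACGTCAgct
Rfx2 chr9:1758097-1758396 (-): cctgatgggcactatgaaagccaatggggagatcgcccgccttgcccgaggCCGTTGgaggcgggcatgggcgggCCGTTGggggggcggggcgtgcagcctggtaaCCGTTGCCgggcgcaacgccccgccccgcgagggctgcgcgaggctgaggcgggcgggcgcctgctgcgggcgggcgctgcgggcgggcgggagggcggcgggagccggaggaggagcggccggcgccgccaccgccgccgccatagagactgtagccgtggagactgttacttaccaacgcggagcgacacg
The first Crem window held no TGACGTCA, the second held 1 and the third held 2, at bases -35 and 39 from the start. This 8-letter word occurred in 1.83% of 33469 windows of the same length. Rfx2 held 3 MYB words and 1 GTTGCC that overlaps the last of them in the run CCGTTGCC. A MYB word occurred in 28.5% of all windows and GTTGCC in 12.2%. The third Crem window also held 2 MYB words, at bases -205 and -174, which are left in lower case. Of the other windows, Taf7l held 2 MYB words and 1 GTTGCC on the opposite strand, while those of Fhl5, Pou5f2, Sox30 and Tbpl1 held none of these words. Such matches are letters in a window, not measured binding sites.

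The labels were set against markers of each cell type, summed per array on the linear scale, where 1 is the 75th percentile. Round spermatid markers (8 of 8 well above background on every array) summed to 24.6 to 50.9 on the saline pachytene arrays and to 162 to 226 on the saline round spermatid arrays, and pachytene markers (7 of 7) to 37.9 to 44.2 and 27.0 to 32.7. Of these 7 pachytene markers, 5 were lower in round spermatids by limma, and 2, Ccna1 (1.33 ± 0.19) and Spag6 (2.70 ± 0.20), were higher, and the counts were the same after cyclophosphamide. Markers of other testis cells also differed between the cell types. Sertoli cell markers summed to 19.1 to 28.7 in pachytene arrays and 1.96 to 5.97 in round spermatid arrays of saline rats, and Leydig cell markers to 5.68 to 11.4 and 1.82 to 4.19, with Lhcgr not above background on any array. Of the 8 Sertoli cell markers tested by limma, 5 were lower in round spermatids, 1 was higher and 2 did not pass. Of all genes tested, 37.0% were called lower and 38.4% higher. Macrophage markers summed to 0.819 to 1.19 and 3.78 to 9.54, with Ptprc above background on no pachytene array. Peritubular myoid markers summed to 1.37 to 2.19 and 3.46 to 5.60, with Cnn1 above background on no pachytene array. Spermatogonium markers summed to 5.45 to 7.70 and 10.2 to 13.8, with Zbtb16 above background on no pachytene array. The part of these cells in the values below was not tested, and in such bulk RNA fewer cells of a type cannot be told apart from less RNA per cell. On each array 65.3% to 76.4% of the probes exceeded background well, the signal at the 75th percentile was 1070 to 2425 units of intensity, and arrays of a group correlated at 0.980 to 0.991.

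Between the cell types of saline rats, 8 of the 11 probes rose in round spermatids, 2 fell and 1 did not pass. This stands against 75.6% of all 21730 probes tested that passed in either direction, with 38% higher and 37.6% lower. The arrays of both groups did not overlap for 8 of the 11 probes, against 57.5% of all probes. Pou5f2 fell the most, Fhl5 and Taf7l rose the most, and Crem held probes that went opposite ways.

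**Figure D1:**
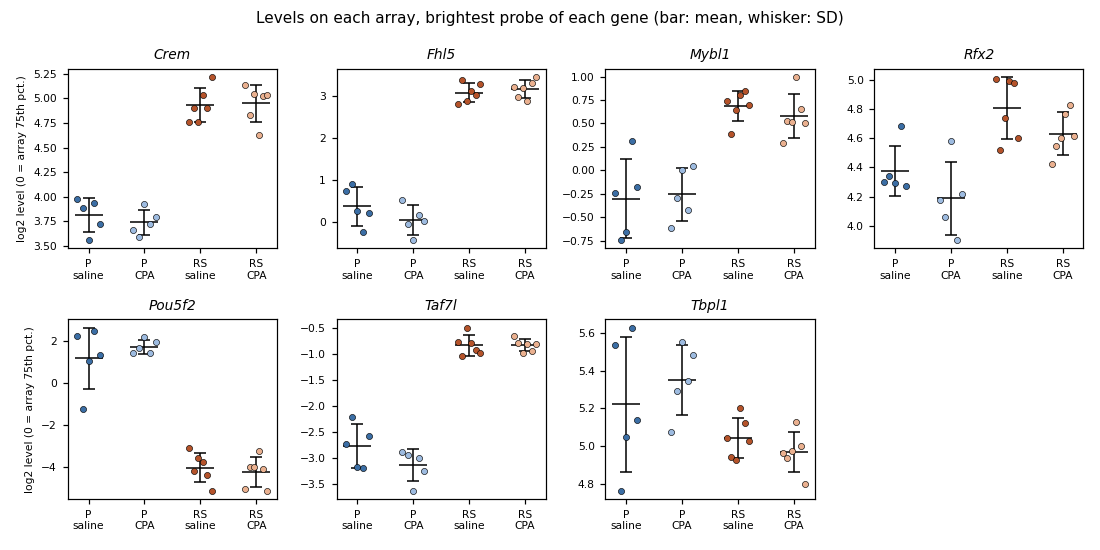
Log2 level (0 is the 75th percentile of the array) of the brightest probe of each of the 7 genes in pachytene spermatocytes (P) and round spermatids (RS) of saline and cyclophosphamide (CPA) rats. Points are arrays, bars are group means and whiskers SDs, and each panel has its own scale. Within each treatment, Crem, Fhl5, Mybl1 and Taf7l lie higher on every round spermatid array than on any pachytene array, Pou5f2 lies lower on every one, and the groups overlap for Tbpl1.

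Crem, the central factor of the spermatid program, was brightest on probe A_64_P042283. On the saline pachytene arrays it stood at 3.98, 3.89, 3.56, 3.94 and 3.72, and on the saline round spermatid arrays it ran from 4.76 through a median of 4.90 to 5.22. Every round spermatid array lay above every pachytene array. Crem was thus 2.16-fold higher in round spermatids (95% interval 1.84 to 2.54), a log2 difference of 1.11 ± 0.11 (limma, adjusted p = 7.78e-09). The difference was 0.88 on slide 1 and 1.45 on slide 2, the slides that held both cell types. Slides 3 and 4 held pachytene arrays only, so cell type and slide partly coincide in every cell type difference given here. With slide in the fit, the difference for this probe was 1.18.

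The second bright Crem probe, A_64_P042278, moved with it: 3.70, 3.53, 3.32, 3.66 and 3.43 in saline pachytene spermatocytes, against 4.53, 4.68 and 4.93 as the lowest, median and highest value in saline round spermatids. Its log2 difference was 1.17 ± 0.10 (limma, adjusted p = 6.66e-10). Across the 22 arrays these probes correlated at 0.996, and at 0.959 once the mean of each group was removed. They share a target gene and each array's scaling.

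Probe A_64_P126493 of Crem changed less. It stood at -2.04, -1.98, -2.27, -1.77 and -2.11 in saline pachytene spermatocytes and from -1.90 through -1.65 to -1.41 in saline round spermatids, so the groups overlapped. Its rise of 0.38 ± 0.11 passed (limma, adjusted p = 0.00239). Within either of these slides it did not pass, at 0.55 on slide 1 (adjusted p = 0.0763) and 0.46 on slide 2 (adjusted p = 0.123). Such a slide held 3 saline round spermatid arrays and 1 saline pachytene array, which was assumed to vary like the others.

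The dim probe A_43_P11922 was well above background on none of the 5 saline pachytene arrays and on all 6 saline round spermatid arrays. The probe was thus tested only through its round spermatid arrays. Group means were -6.25 ± 0.37 and -5.11 ± 0.19, a log2 difference of 1.14 ± 0.18 that passed (limma, adjusted p = 3.64e-06). A separate fold, which has no test of its own, put Crem by this probe 2.09-fold higher in round spermatids. For this fold, each pachytene array counted at its lowest signal well above background, or at the probe's own signal where that was higher. The fold is no lower limit, since it depends on the background correction. With normexp background correction the difference shrank to 0.15 and did not pass (adjusted p = 0.267). It was 0.69 on slide 1 alone (adjusted p = 0.0746).

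The fifth Crem probe, A_44_P988767, went the other way. Its levels in saline pachytene spermatocytes were -3.87, -3.04, -3.46, -3.46 and -3.47, and in saline round spermatids they ran from -5.98 through -5.45 to -5.06, with 5 of 6 arrays well above background. No pachytene array was as low as any round spermatid array. The signal was 4.10-fold lower in round spermatids (95% interval 3.20 to 5.27), a log2 difference of -2.04 ± 0.17 (limma, adjusted p = 4.37e-10). The difference was -1.40 on slide 1 and -2.26 on slide 2. With normexp background correction it shrank to -1.16, outside that interval, and still passed (limma, adjusted p = 6.80e-09).

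A_44_P988767 carries the same transcript accession as the 3 probes that start with A_64, and A_43_P11922 carries another one. Crem is known for alternative starts and exons that yield activators and repressors, and the windows printed above lie at 3 of its starts. The files do not say which exon a probe lies in, so no probe was assigned to a form of Crem. The contrast between these probes was noticed in their values and is given without a test. The level of A_64_P042283 minus that of A_44_P988767 rose by 3.15 from saline pachytene spermatocytes to saline round spermatids and by 3.38 between the cells of cyclophosphamide rats. These sizes depend on the background correction, since A_44_P988767 was near background in round spermatids.

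**Figure D2:**
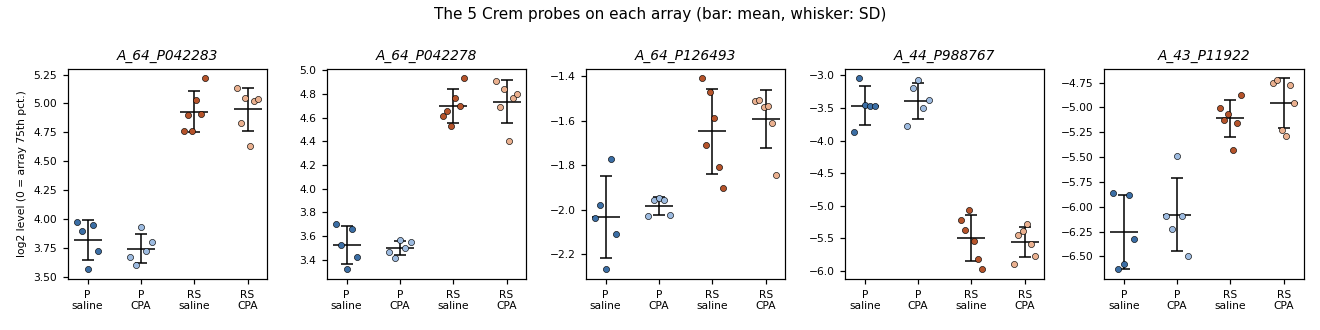
Log2 level (0 is the 75th percentile of the array) of the 5 Crem probes in pachytene spermatocytes (P) and round spermatids (RS) of saline and cyclophosphamide (CPA) rats, with points for arrays, bars for means and whiskers for SDs. A_44_P988767 is lower on every round spermatid array (-5.98 to -5.06 after saline) than on any pachytene array (-3.87 to -3.04 after saline), and A_64_P042283 and A_64_P042278 are higher. Levels of different probes are not comparable.

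Fhl5, the coactivator of CREM, rose the most. In saline pachytene spermatocytes it stood at 0.74, 0.91, 0.26, -0.24 and 0.22, and in saline round spermatids it ran from 2.82 through 3.07 to 3.40, clear of every pachytene array. It was 6.53-fold higher in round spermatids (95% interval 4.99 to 8.53), a log2 difference of 2.71 ± 0.19 (limma, adjusted p = 1.75e-11). The difference was 2.20 on slide 1 and 2.97 on slide 2.

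Known targets and partners of CREM were followed as a list of 10 genes, of which 8 were tested. All 8 rose in round spermatids of saline rats, with a median log2 difference of 1.85, beside 0.01 over all 19822 genes tested and 38.4% of those genes called higher. Ace, the angiotensin-converting enzyme with a testis form, rose by 2.60 ± 0.18, Prm2, a protamine, by 2.54 ± 0.27 and Odf1, of the outer dense fibres of the tail, by 2.37 ± 0.22. Creb3l4 was not tested, being above background on too few arrays, and Kif17 had no probe. Prm1, Prm2, Tnp2, Odf1 and Smcp also stand in the elongating spermatid marker list, whose sums were 217 to 519 in saline pachytene arrays and 703 to 1194 in saline round spermatid arrays. On slide 1 alone 4 of the 8 passed, and all 8 lay above 0.

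Mybl1, the activator of the pachytene program, was not lower but higher in round spermatids. Saline pachytene spermatocytes gave -0.24, -0.74, -0.65, 0.31 and -0.18, and saline round spermatids ran from 0.39 through 0.72 to 0.84. The highest pachytene value, of rat 26, fell just short of the lowest round spermatid value. The fold was 1.98 (95% interval 1.56 to 2.53), a log2 difference of 0.99 ± 0.17 (limma, adjusted p = 1.51e-05), with 0.97 on slide 1 and 1.30 on slide 2.

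Rfx2, the partner of A-MYB, rose less. Saline pachytene arrays stood at 4.30, 4.34, 4.29, 4.68 and 4.28, and saline round spermatid arrays ran from 4.52 through 4.86 to 5.01. The pachytene array of rat 26 lay inside the round spermatid range and the other 4 lay below it. The log2 difference was 0.43 ± 0.13 (limma, adjusted p = 0.00438). This call ended under quantile normalization, at 0.28 (adjusted p = 0.0667), and within each slide, at 0.62 on slide 1 (adjusted p = 0.0702) and 0.41 on slide 2 (adjusted p = 0.249).

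Genes listed as targets of A-MYB and RFX2, most of them of the piRNA pathway, mostly moved opposite to Mybl1. The list holds none of the genes for spermatid shape and the flagellum, so it does not speak for RFX2 targets as a class. Of 10 listed, 9 were tested, 6 fell and 1 rose in round spermatids of saline rats, with a median log2 difference of -1.43, and 37.0% of all genes tested were called lower. H1f6, the testis linker histone of spermatocytes, fell by 6.22 ± 0.21 on the log2 scale, Piwil1, the protein that binds pachytene piRNAs, by 4.34 ± 0.38 and Tdrd5, a Tudor protein of the same pathway, by 4.29 ± 0.13. Gtf2a1l, a germ cell form of a TFIIA subunit, rose by 0.47 ± 0.12, and Tdrd6 and Mael did not pass. Mov10l1 had no probe. H1f6 and Piwil1 also belong to the pachytene marker list.

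Pou5f2 changed more than any other of these genes. In saline pachytene spermatocytes it stood at 2.27, -1.22, 1.05, 2.50 and 1.35, and in saline round spermatids it ran from -5.15 through -4.01 to -3.12. Groups did not overlap, although rat 16 lay well below the other 4 pachytene arrays. Pou5f2 was 37.9-fold lower in round spermatids (95% interval 18.6 to 77.3), a log2 difference of -5.24 ± 0.50 (limma, adjusted p = 2.27e-09). Without rat 16 the difference was -5.85, and on the slides that held both cell types it was -5.77 and -5.65. With normexp background correction it was -4.54, so the size of the fold depends on that correction.

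The array of rat 16 had the lowest Pou5f2, Mybl1 and Tbpl1 and the highest Fhl5 and Taf7l of the saline pachytene group. Its round spermatid markers summed to 50.9, the highest of the group, against 24.6 to 49.0 on the other 4 arrays, and its pachytene markers to 39.0 against 37.9 to 44.2. The part of these markers in the member values of that array was not tested.

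Taf7l, the TFIID subunit of germ cells, stood at -2.72, -2.21, -3.17, -3.19 and -2.57 in saline pachytene spermatocytes. In saline round spermatids it ran from -1.05 through -0.87 to -0.50, above every pachytene array. It was 3.82-fold higher (95% interval 3.02 to 4.83), a log2 difference of 1.93 ± 0.16 (limma, adjusted p = 3.78e-10), with 2.03 on slide 1 and 2.18 on slide 2. With normexp background correction the Taf7l difference shrank to 1.53, below its log2 interval of 1.59 to 2.27, and still passed. Its widely expressed paralog Taf7 fell by 1.38 ± 0.22 in the same comparison (limma, adjusted p = 4.94e-06).

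Tbpl1 barely differed. Saline pachytene arrays gave 5.54, 4.76, 5.05, 5.63 and 5.14, and saline round spermatids ran from 4.93 through 5.03 to 5.20, inside that range. The log2 difference of -0.18 ± 0.13 (95% interval -0.45 to 0.09) did not pass (limma, adjusted p = 0.221). Leaving out rat 16 gave -0.29, which passed (adjusted p = 0.0335), as did quantile normalization at -0.27 (adjusted p = 0.0498). Tbp, the TATA-binding protein itself, differed by 0.20 ± 0.13 and did not pass either (limma, adjusted p = 0.177).

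In cyclophosphamide rats, whose arrays are none of those above, all 11 probes kept the direction they had in saline rats, as did 94.7% of 21373 probes tested in both. Of the 11, 8 rose and 3 fell, where 79.5% of 21644 probes passed, 38.6% higher and 40.8% lower. Arrays of both cell types did not overlap for 9 of the 11 and for 67.2% of all probes. Within a cell type, saline and cyclophosphamide arrays overlapped for every probe.

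Fhl5 stood at 0.03, 0.54, -0.04, -0.42 and 0.17 in pachytene spermatocytes of cyclophosphamide rats and from 2.88 through 3.22 to 3.46 in their round spermatids, a log2 difference of 3.12 ± 0.19. Taf7l stood at -3.24, -2.88, -2.95, -3.63 and -3.01 and from -0.99 through -0.81 to -0.66, a difference of 2.31 ± 0.16. Both were again clear of overlap.

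Pou5f2 stood at 1.98, 1.46, 1.69, 2.20 and 1.43 in these pachytene spermatocytes and from -5.17 through -4.08 to -3.25 in the round spermatids. No pachytene array stood apart here as rat 16 did after saline. The difference was -6.03 ± 0.50, a 65.3-fold lower signal (95% interval 32.0 to 133). Under normexp it was -5.24.

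Mybl1 rose by 0.84 ± 0.17, from levels of 0.05, -0.61, -0.29, 0.00 and -0.42 to a median of 0.52, a lowest of 0.30 and a highest of 0.998. Rfx2 rose by 0.44 ± 0.13 (limma, adjusted p = 0.0032), with overlapping arrays, and on slide 1 its 0.44 did not pass (adjusted p = 0.156). Tbpl1 fell by 0.38 ± 0.13 (limma, adjusted p = 0.0108), a call that ended with slide in the fit at -0.35 (adjusted p = 0.0574) and within slides at -0.10 and -0.39. Its pachytene levels were 5.48, 5.07, 5.29, 5.55 and 5.34, and its round spermatid levels ran from 4.80 through 4.97 to 5.13.

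The bright Crem probes rose by 1.21 ± 0.11 (A_64_P042283) and 1.23 ± 0.10 (A_64_P042278) in cyclophosphamide rats. A_44_P988767 fell by 2.17 ± 0.17, with 3 of 6 round spermatid arrays well above background, and under normexp its difference was -1.26. A_64_P126493 rose by 0.39 ± 0.11 (limma, adjusted p = 0.00183), and within slides its 0.48 and 0.33 did not pass. A_43_P11922 was above background on 1 of 5 pachytene and 5 of 6 round spermatid arrays, with means of -6.08 and -4.96. Its difference of 1.12 ± 0.18 passed (limma, adjusted p = 4.10e-06), but the size is uncertain since most pachytene arrays did not measure it. No fold was reckoned as after saline, since 1 pachytene array was above background. Under normexp its 0.13 did not pass (adjusted p = 0.342).

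**Figure D3:**
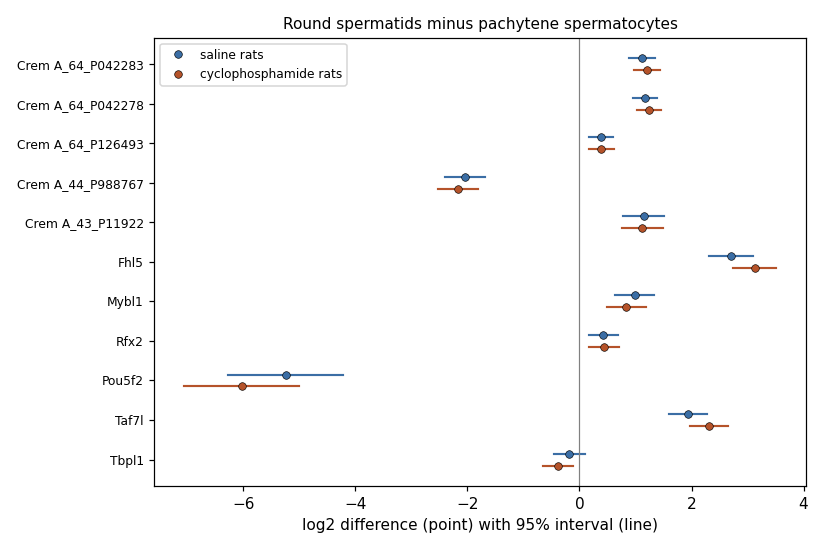
Log2 difference, round spermatids minus pachytene spermatocytes, of the 11 probes in saline rats and in cyclophosphamide rats (points, with lines for 95% intervals). Pou5f2 and Crem A_44_P988767 lie far below 0 in both, at -5.24 and -2.04 after saline, Fhl5 and Taf7l lie highest, and the Tbpl1 interval spans 0 after saline only.

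Cyclophosphamide changed none of these genes by a margin that passed. In pachytene spermatocytes 10 probes were tested, 0 passed, and the adjusted p by limma ran from 0.697 to 0.965, with 1 of the 10 at an unadjusted p under 0.05. Over all 20673 probes 0% passed, with 1469 at an unadjusted p under 0.05 and a lowest adjusted p of 0.511. Treated and saline arrays overlapped for all 10 probes, while 0.624% of all probes did not overlap. The 95% intervals reached 1.65-fold at most, apart from Pou5f2, whose interval reached 3.09-fold.

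Taf7l was that probe, with an adjusted p of 0.697 by limma. Its group mean was -3.14 ± 0.31 after cyclophosphamide and -2.77 ± 0.42 after saline, a difference of -0.37 ± 0.17. Without rat 16 of the saline group, whose array was on slide 4, the difference was -0.23. On slide 3 alone the difference was -0.52 and on slide 4 -0.93, neither of which passed. Slides 1 and 2 held 1 pachytene array of each treatment and gave no test: Taf7l stood at -2.88 after cyclophosphamide and -2.72 after saline on slide 1, and at -3.01 and -3.17 on slide 2, where the cyclophosphamide array was the higher.

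Fhl5 went the same way, from 0.38 ± 0.46 after saline to 0.06 ± 0.35 after cyclophosphamide, a difference of -0.32 ± 0.19 that did not pass (limma, adjusted p = 0.740). It was -0.19 without rat 16 of the saline group. Rfx2 differed by -0.19 ± 0.13, Tbpl1 by 0.13 ± 0.14 and Mybl1 by 0.05 ± 0.18. Pou5f2 had means of 1.75 ± 0.34 and 1.19 ± 1.48, a difference of 0.56 ± 0.52 that became -0.04 without rat 16 of the saline group. The 4 Crem probes tested lay between -0.08 and 0.08.

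In round spermatids all 11 probes were tested, 0 passed, each had an adjusted p of 0.9998 by limma, and 0 had an unadjusted p under 0.05. Over all 21008 probes 0% passed, with 717 at an unadjusted p under 0.05, and 0.19% did not overlap. None of the 11 was free of overlap. The intervals reached 1.41-fold at most, and 2.30-fold for Pou5f2. Fhl5 differed by 0.09 ± 0.18, Taf7l by 0.01 ± 0.16, Mybl1 by -0.10 ± 0.16 and Rfx2 by -0.18 ± 0.12. Pou5f2 differed by -0.23 ± 0.47, with -0.90 on slide 1 and 0.45 on slide 2. The Crem probes lay between -0.06 and 0.15.

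The effect of cyclophosphamide did not differ between the cell types for any member by a margin that passed. The difference between effects ranged from -0.78 ± 0.70 for Pou5f2 to 0.42 ± 0.26 for Fhl5, with 0.37 ± 0.23 for Taf7l, and adjusted p by limma from 0.662 to 0.986. Without rat 16 of the saline pachytene group, it was -0.18 for Pou5f2, 0.29 for Fhl5 and 0.23 for Taf7l. The single probe of 22001 that passed (0.00455%) was A_64_P133587, which has no gene symbol here and is no probe of these genes. It is named after its value was seen, a difference between effects of 1.89 ± 0.27 (limma, adjusted p = 0.0101).

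**Figure D4:**
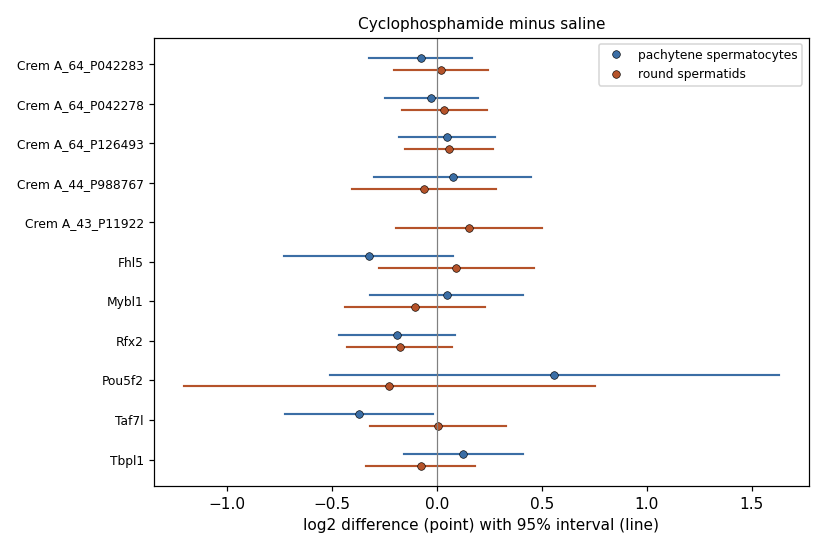
Log2 difference, cyclophosphamide minus saline, of the member probes in pachytene spermatocytes (10 probes tested) and round spermatids (11 probes tested), as points with lines for 95% intervals. The Taf7l interval in pachytene spermatocytes, around -0.37, is the only one that leaves out 0 before adjustment, and the Pou5f2 intervals are the widest.

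None of the 5 lists of related genes had a member that passed for cyclophosphamide in either cell type. CREM targets and partners lay below 0 in pachytene spermatocytes in 8 of 8 cases, with a median log2 difference of -0.34 beside 0.03 for all 18853 genes tested, and the median was -0.27 without rat 16 of the saline group. Beside them, round spermatid markers lay below 0 in 8 of 8 cases with a median of -0.53, and elongating spermatid markers in 8 of 8 with -0.40, and none passed. Macrophage markers also lay below 0 in 7 of 7 cases, with a median of -0.30, and peritubular myoid markers in 4 of 4, with -0.25. The other marker medians were 0.10 for pachytene, -0.07 for spermatogonium, -0.02 for Sertoli cell and -0.10 for Leydig cell markers. The summed round spermatid markers were 22.3 to 39.0 on the cyclophosphamide pachytene arrays and 24.6 to 50.9 on the saline ones. The part of any of these markers in the lower values of Fhl5, Taf7l and the CREM targets was not tested. In round spermatids 5 CREM targets lay above 0 and 3 below, with a median of 0.03. The A-MYB and RFX2 targets had medians of 0.16 in pachytene spermatocytes and -0.01 in round spermatids.

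Relatives of the 8 factors, as a list of 21 paralogs with 13 tested, split between the cell types of saline rats. Of these, 6 rose, 3 fell and 4 did not pass, with a median of 0.20. Over all 19822 genes tested, 38.4% were called higher and 37.0% lower, so a split alone does not set this list apart. Rfx1, a broadly expressed RFX factor, rose by 2.81 ± 0.20, and Sox6, a SOX factor with a testis transcript, by 2.01 ± 0.12. Fhl2, a LIM-domain relative of FHL5, was above background on none of the 5 pachytene arrays and all 6 round spermatid arrays. Its log2 difference of 2.19 passed (limma, adjusted p = 1.14e-05), but it too was tested only through its round spermatid arrays. Reckoned as for Crem A_43_P11922, the fold was 3.59, which has no test of its own. Rfx7 fell by 2.21 ± 0.21, Taf7 by 1.38 ± 0.22 as above, and Fhl1 by 0.87 ± 0.18. Those that did not pass were Pou2f1, Pou5f1, Fhl3 and Tbp.

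The general factors at the core promoter, with which TAF7L and TBPL1 work, also split. Of 22 listed and 16 tested, 9 rose, 6 fell and 1 did not pass, with a median of 0.25. Of all genes tested, 38.4% were called higher and 37.0% lower. Taf9b, a paralog of the TFIID and SAGA subunit TAF9, rose by 1.96 ± 0.19, the TFIIA gene Gtf2a1 by 1.75 ± 0.14 and the TFIID gene Taf10 by 1.56 ± 0.13. Taf2 fell by 2.38 ± 0.21, Taf11 by 2.09 ± 0.14 and Gtf2b, the gene of TFIIB, by 1.82 ± 0.13. Under quantile normalization 7 rose and 6 fell.

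Other regulators of meiotic and spermatid cells numbered 14, with 8 tested, of which 4 rose and 2 fell, with a median of 0.90. Over all genes tested the shares called higher and lower were 38.4% and 37.0%. Zbtb16, a factor of undifferentiated spermatogonia, was above background on no saline pachytene array and all 6 round spermatid arrays. Its log2 difference of 2.21 passed (limma, adjusted p = 2.43e-09), but it was tested only through its round spermatid arrays. Reckoned as for Crem A_43_P11922, the fold was 2.67, which has no test of its own. Hsf2, a heat shock factor active in spermatogenesis, rose by 1.32 ± 0.11, and Zmynd15, a repressor needed in spermatids, by 1.29 ± 0.19. Rhox8, a homeobox gene of Sertoli cells, fell by 2.16 ± 0.22, beside the lower sums of Sertoli cell markers given above, and Brdt, a testis bromodomain protein, by 0.42 ± 0.10. Zbtb16 and Dmrt1 of this list are also spermatogonium markers, whose sums were higher in round spermatids.

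For each gene the 3 symbols with the most similar profile were taken as those with the smallest root mean square log2 difference over the 22 arrays, each centred on its mean, among 11218 candidates. The 4 groups share most of this pattern, since cell type sets the level of most probes. Fhl5 lay nearest to Sh3d21 (0.075), Garin1b (0.084) and Ctag2 (0.086). Tbpl1, which varied little, lay nearest to Immt (0.069), Glrx3 (0.071) and Cand1 (0.101). Crem by its brightest probe lay nearest to Tmbim6 (0.099), Ttll13 (0.101) and C11h3orf38 (0.103), Rfx2 to Dpf2 (0.132), Thap1 (0.133) and Ilk (0.147), and Mybl1 to Knl1 (0.118), Tpst1 (0.141) and Obi1 (0.142). Taf7l lay nearest to Eaf2 (0.194), Plod1 (0.206) and Itgbl1 (0.211). Pou5f2 had the farthest neighbours, Fbxo43 (0.567), Gmcl1 (0.648) and Pbk (0.703), and it also had the widest range over arrays.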

How the data were processed

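The deposited scanner files give, for every spot, an intensity called the processed signal, from which Feature Extraction had subtracted background, per the file headers. The headers name version 10.7.3.1, and the submitters' processing notes 11.5.1.1. A value table of the authors is on a log2 scale. Its columns fitted scanner signals that were quantile normalized and median-centred per probe inside a cell type (the lowest correlation with the own array was 0.9988, over brighter probes, column medians -0.0096 to 0.0072). Scale and direction follow from that match, the exact steps are unknown, and the table served only as an alternative for treatment.

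Control spots and outlier spots were left out and spots of a probe averaged. Log2 signals were scaled by subtracting the 75th percentile of each array. The accessions of 17998 probes (59.3%) matched a symbol in the RefSeq gene table of GRCr8, giving 15154 symbols, and 37 probes lacked a value on an array. A probe was tested where more than 0.5 of its spots were well above background on all but at most 1 array of a group compared. Group means of all 22 arrays were fitted with lmFit and eBayes of limma 3.58.1 (statmod 1.5.0, R 4.3.3) and checked on simulated data. Lists use the brightest probe of each gene. Groups of 5 or 6 arrays limit the precision.

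The members, the 5 gene lists, the 8 marker lists and the tests were chosen with earlier results of these data known. The text names every member probe and, of each list, at most 3 genes in each direction that passed with the largest difference, and it names in addition genes of a list that were not tested or did not pass. The labels number the rats but do not say that equal numbers under a treatment are the same animal. Among the cyclophosphamide pachytene arrays, the number 16 stands on more than 1 label, each time with a different year. Whether those arrays share an animal is not stated, and the group size of 5 counts each array. The p-values measure the spread between the arrays of the series. Alternatives were quantile normalization, normexp, no filter, 1 probe per gene, slide, replicate blocks and each array left out. Normexp with an offset of 50 used the median spot signal, since the files used here give no mean.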

Additional observations from a re-analysis of the deposited data

Results flagged for a closer look

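Of 44 member probe and group combinations, 2 had a single array far from the rest, where chance marks about 1 group in 20. In round spermatids of cyclophosphamide rats, Crem probe A_64_P126493 stood at -1.84 on the array of rat 27, against -1.61 to -1.51 on the other 5. In saline pachytene spermatocytes, Rfx2 stood at 4.68 on the array of rat 26, against 4.28 to 4.34 on the other 4. That array also had the lowest sum of round spermatid markers of its group (24.6).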

How the results depend on the processing

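Between the cell types, 0 of 410 member values under the alternatives changed direction, arrays left out included, and of the 168 without those, 153 kept their side of the threshold, 14 lost it and 1 gained it. Member calls after saline numbered 10 to 11 and after cyclophosphamide 11 to 11 with 1 array left out, and 6 and 7 with 1 probe per gene, which fits fewer probes. Quantile normalization moved the median of all probes after saline from -0.0036 to -0.102, and no filter to 0.108, so small falls are relative to that. Of 24 list genes named, 0 reversed, and Brdt, Fhl1 and Gtf2a1l failed on a slide alone.

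For treatment, 0 of 525 member values passed (lowest adjusted p 0.191). Signs of these small values turned as follows. In pachytene spermatocytes, Crem A_64_P042278 was 0.055 on slide 3, and on slide 4 Crem A_64_P042283 was 0.00958, A_64_P126493 -0.073 and Rfx2 0.069. In round spermatids, Crem A_64_P126493 was -0.0046 under normexp and -0.063 on slide 1, where Taf7l was -0.17. On slide 2 Fhl5 was -0.12, Mybl1 0.034, Pou5f2 0.45, and Crem A_44_P988767 0.22, A_64_P042278 -0.13 and A_64_P042283 -0.18. The difference between effects was -0.016 for Taf7l on slide 1, and -0.028 for Fhl5 and 0.072 for Pou5f2 on slide 2. With 1 array left out, the ranges that crossed 0 in pachytene spermatocytes were -0.028 to 0.18 for Crem A_44_P988767, -0.079 to 0.017 for A_64_P042278, -0.0094 to 0.11 for A_64_P126493, -0.063 to 0.20 for Mybl1 and -0.043 to 0.89 for Pou5f2. In round spermatids they were -0.16 to 0.027 for Crem A_44_P988767, -0.018 to 0.083 for A_64_P042283 and -0.036 to 0.075 for Taf7l. Over all probes, cyclophosphamide calls in pachytene spermatocytes were 1 with no filter, 9 on slide 3 and 20 on slide 4, in round spermatids 2 on slide 1 and 4 on slide 2, and for the difference between effects 0 under normexp, 4 on slide 1 and 23 on slide 2. Slides hold few arrays, and the cause was not tested.

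Whether arrays of both cell types with the same treatment and number come from 1 animal is not known. The deviations of such arrays from the group means correlated at -0.07 to 0.37. A replicate block on treatment and number (correlation 0.02) gave 16451 calls after saline and 17205 after cyclophosphamide. It gave 0 and 0 for treatment and 1 for the difference between effects, and changed no member call. Signal over background limits Crem A_43_P11922 and A_44_P988767, which were near background in a cell type. The sizes given for Taf7l and Pou5f2 between the cell types also depend on the background correction.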
